A study of Mus musculus with 6 samples.

Results

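Classical monocytes of the lung, marked by Ly6c2, were taken from single-cell RNA libraries of CD45+ lung cells and numbered 4186 of 61736 cells that passed quality filters, in 6 libraries. A cell was counted in when it held at least 2 unique molecular identifiers (UMIs, 1 for each captured RNA molecule) of Ly6c2 and at least 3 of Ccr2, F13a1, Vcan and Ms4a4c together. It also had to hold at least 200 genes and at most 10% mitochondrial UMIs, under 5% of UMIs from S100a8 and S100a9, and no more than traces of marker genes of neutrophils, macrophages, dendritic cells and lymphocytes. The cells were thus selected on the levels of those genes, which are described here and not tested.

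The study took lungs from wild-type mice (WT, strain spelled C65BL6 in the labels) and from NOS1-/- mice (KO), which carry a knockout of Nos1, the neuronal nitric oxide synthase. Mice received lipopolysaccharide (LPS, the bacterial cell wall product sensed by the receptor TLR4) at 10 mg/kg into the peritoneum, or vehicle, for 4 h. There was 1 WT vehicle library, 1 KO vehicle library, 2 WT LPS libraries and 2 KO LPS libraries, all made with 10x Genomics chemistry after a magnetic positive selection for CD45. Age, sex, the knockout allele and whether animals were pooled are not given in the sources used here, nor is whether the LPS libraries of a genotype came from different animals. All p-values therefore reflect only how far these libraries scatter, and that scatter may be technical.

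Classical monocytes leave the bone marrow through Ccr2, circulate, and enter inflamed tissue, where they can become macrophages or dendritic cells. LPS bound by CD14, MD-2 (Ly96) and TLR4 signals through MyD88 to NF-kB, which switches on chemokines, cytokines and its own inhibitors, and through TRIF to type I interferon, which switches on interferon-stimulated genes. Nitric oxide in inflamed myeloid cells comes mainly from the inducible synthase Nos2, a gene distinct from the one knocked out here.

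Of the cells, 247 came from the WT vehicle library, 263 from KO vehicle, 1059 and 1117 from WT LPS, and 851 and 649 from KO LPS. Their share of all passing cells was 2.39% (exact 95% binomial interval 2.10% to 2.70%) in WT vehicle and 3.06% (2.71% to 3.45%) in KO vehicle. It was 9.83% (9.28% to 10.4%) and 9.26% (8.74% to 9.79%) in WT LPS and 7.35% (6.88% to 7.84%) and 7.74% (7.18% to 8.33%) in KO LPS. All 4 LPS libraries thus lay above both vehicle libraries. The intervals cover counting error only, a share depends on what the selection kit recovered of other cells, and cells of the LPS libraries were deeper. With every cell thinned to 2000 UMIs the shares were 2.43% and 2.26% in vehicle, 7.59% and 7.07% in WT LPS and 5.68% and 6.24% in KO LPS. The median monocyte held 4908 and 6633 UMIs in vehicle and 7879 to 11314 in LPS libraries, and monocyte UMIs summed to between 1275195 and 14204720 a library.

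The genes of the rule behaved unevenly across treatments. Ly6c2 itself, a cell surface protein of classical monocytes, stood at 1444 and 1502 counts per 1e+06 UMIs (CPM) in vehicle and 1697 to 1783 CPM in LPS libraries. Ccr2, the receptor for Ccl2, stood at 1484 and 1059 CPM in vehicle, 332 and 329 CPM in WT LPS and 482 and 449 CPM in KO LPS. Coagulation factor F13a1 followed the same order, with 1371 and 1216 CPM in vehicle against 270 to 554 CPM under LPS. The proteoglycan Vcan (319 and 158 CPM in vehicle, 553 to 808 CPM under LPS) and Ms4a4c (653 and 471 CPM in vehicle, 1862 to 2585 CPM under LPS) lay the other way. All 5 markers were thus present in every library. Just outside the rule, with 1 Ly6c2 UMI, lay 44 and 28 vehicle cells and 90 to 148 LPS cells a library. Just inside it, with 2, lay 45 and 32 vehicle cells and 56 to 107 LPS cells.

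Several features of the libraries bear on the results. Transcripts of Xist, the RNA that silences an X chromosome in female cells, and of Y-linked Ddx3y, Uty, Kdm5d and Eif2s3y did not follow the groups. Cells with Y-linked UMIs alone numbered 131 in WT vehicle and 0 in KO vehicle and both WT LPS libraries, where 219, 655 and 745 cells held Xist alone. The KO LPS libraries held both kinds, 225 and 194 cells with Xist alone and 350 and 206 with Y-linked UMIs alone. By these marks each KO LPS library mixed cells of more than 1 animal, and how they came together is not given. Both kinds of mark in 1 cell were seen in 39 and 35 cells there and in at most 1 cell of any other library. Sex of the cells and the groups of the study therefore cannot be told apart in several comparisons, and each is given below with these cells separated where the data allow it. Marker sums of platelets (Ppbp, Gp9, Itga2b) stood at 116 CPM in the first KO LPS library, where 2 cells held 1174 of 1198 such UMIs, and at 0 to 7.5 CPM elsewhere. The 10 neutrophil markers summed to 274 and 258 CPM in vehicle and 424 to 623 CPM in LPS libraries, and the 6 B cell markers to 326 and 257 CPM against 36.8 to 89.4 CPM. Cd79a was at 0 in all by the rule, and Camp and Ngp at 0 in both vehicle libraries. The 6 interstitial macrophage markers, of which Pf4 is also a platelet gene, summed to 144 CPM in the first KO LPS library and to 21.8 to 33.8 CPM elsewhere. Libraries shared at most 1 monocyte barcode per pair. Nos1 itself had 0 monocyte UMIs in 4 libraries and 1 in each KO LPS library. Over all cells it had 2 UMIs in WT vehicle, 5 in KO vehicle, 0 and 1 in WT LPS and 4 in each KO LPS library, so more in the libraries labelled KO than in those labelled WT. These few reads do not check the labels, since the sources used here do not say which part of the gene is deleted.

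LPS changed the monocyte transcriptome broadly. Of 12077 genes tested, 3754 were higher (31.1%) and 3107 lower (25.7%) under LPS at an adjusted p under 0.05, averaged over genotypes (edgeR quasi-likelihood test on UMIs summed per library, Benjamini-Hochberg adjustment). With plain CPM in place of the trimmed-mean (TMM) scaling the split was 2622 higher and 4501 lower, since the median of all genes then lay lower by 0.33 on the log2 scale; for KO against WT it lay higher by 0.17, and for the genotype-by-LPS term by 0.15. All levels below are CPM after TMM scaling. The 12 largest rises included acute-phase proteins (Saa3, Lcn2), the chemokine Ccl12, matrix and protease genes (Sdc4, Timp1, Mmp14) and Nos2.

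Saa3, a serum amyloid acute-phase protein, stood at 4.08 CPM in WT vehicle, 4.72 in KO vehicle, 29193 and 29356 in WT LPS and 15990 and 15717 in KO LPS. Every LPS library lay above both vehicle libraries, as the rule that named the gene required, and the WT LPS libraries above the KO ones. The change was 12.26 ± 0.12 on the log2 scale (estimate ± SE, edgeR adjusted p = 6.96e-10). Lcn2, the siderophore-binding lipocalin, stood at 0.680 and 5.19 CPM in vehicle, 8033 and 7607 in WT LPS and 4527 and 4336 in KO LPS, a change of 11.59 ± 0.14. Acod1, the enzyme that makes itaconate, stood at 1.36 and 0.944 CPM in vehicle, 1157 and 1069 in WT LPS and 575 and 622 in KO LPS, a change of 9.47 ± 0.18. Both were higher in all 4 LPS libraries, which the same rule required, with lower levels in KO than in WT.

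Nos2 (chr11:78920787-78960254, plus strand, mm10) had no UMI in either vehicle library and stood at 368 and 320.5 CPM in WT LPS and 28.2 and 39.9 CPM in KO LPS. Against a floor of 3 counts over the vehicle libraries it was at least 258-fold higher under LPS. Ptx3, a soluble pattern-recognition pentraxin, was likewise at 0 in vehicle and at 471, 504, 120 and 164 CPM in the LPS libraries, at least 408-fold higher. The long noncoding RNA U90926 (at least 271-fold) and Btbd16 (at least 91.4-fold) also had 0 vehicle UMIs. The chemokine Ccl17 had 0 vehicle UMIs too and passed the test narrowly (edgeR adjusted p = 0.0498), at 58.7 and 171 CPM in WT LPS and 5.69 and 52 CPM in KO LPS. In cells thinned to 2000 UMIs it was seen in 1.81%, 2.36%, 0.949% and 0.770% of LPS monocytes against 2.48%, 2.08%, 2.15% and 2.2% of B cells of the same libraries. Its share thus does not stand clearly above that of B cells, and it is not counted here as a monocyte gene. Its UMIs were concentrated in a cluster of 185 LPS monocytes described below, at 998 CPM against 10.4 CPM in the other clusters. For genes with a vehicle library at 0 the ratio of UMIs is given with its 95% counting interval. It was 1209 (518 to 3724) for Sdc4, a heparan sulphate proteoglycan, and 1832 (329 to 72365) for Ccl12, a ligand of Ccr2. It was 1303 (234 to 51461) for Timp1, an inhibitor of metalloproteinases, and 147 (67.3 to 399) for Mmp14, a membrane-bound metalloproteinase.

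**Figure D1:**
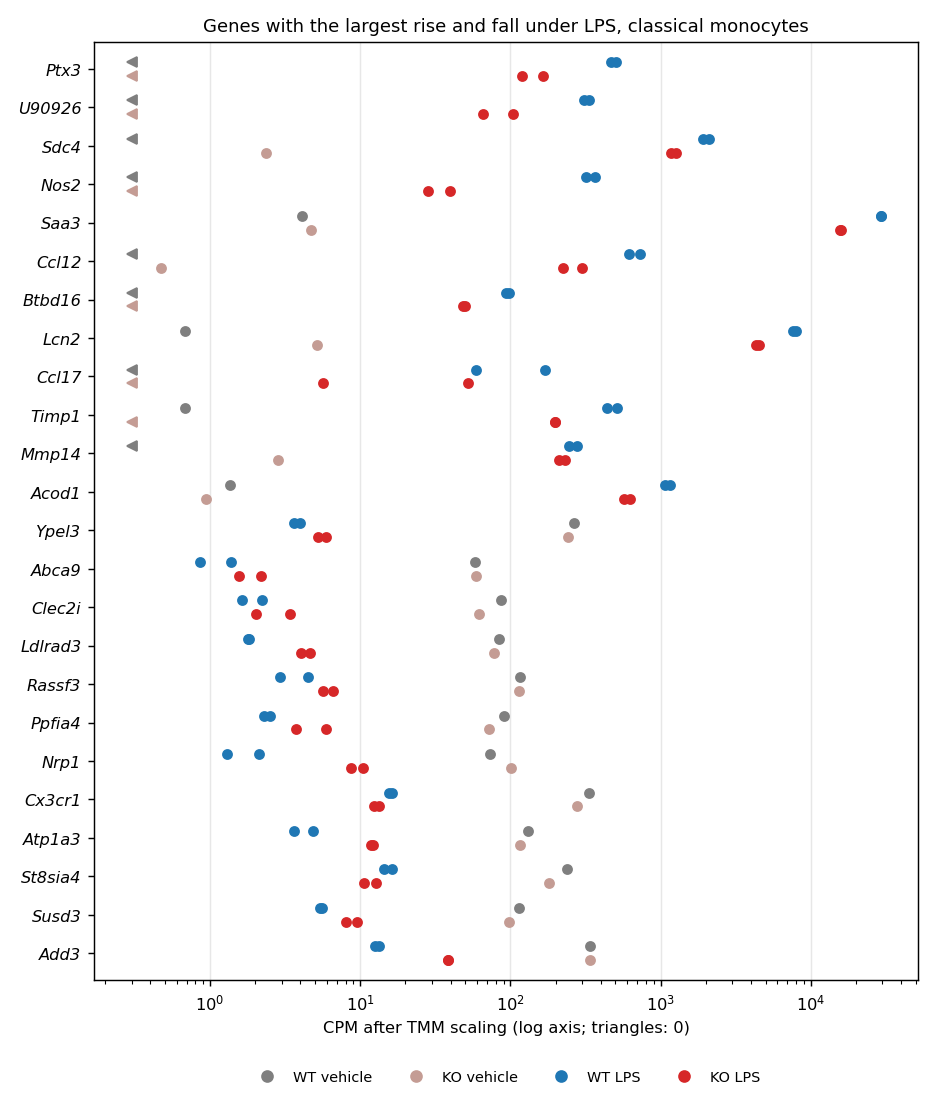
Level of each of the 24 genes with the largest rise or fall under LPS, in CPM after TMM scaling on a log axis, with 1 point per library and triangles for 0. The LPS libraries lie to the right of the vehicle libraries for the upper 12 genes, from Ptx3 to Acod1, and to the left for the lower 12, from Ypel3 to Add3. The rule that chose these genes required this.

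The largest falls included a receptor that marks patrolling monocytes and proteins of the membrane. Cx3cr1, the fractalkine receptor, stood at 336 and 276 CPM in vehicle, 16.2 and 15.6 CPM in WT LPS and 12.4 and 13.3 CPM in KO LPS, a change of -4.42 ± 0.07 on the log2 scale (edgeR adjusted p = 2.72e-09). Ypel3 stood at 266 and 243 CPM in vehicle and at 3.64 to 5.88 CPM in the LPS libraries, a change of -5.77 ± 0.08. Nrp1, a co-receptor of semaphorins and vascular growth factor, stood at 72.8 and 101 CPM in vehicle, 1.30 and 2.11 CPM in WT LPS and 8.72 and 10.5 CPM in KO LPS. Add3, a protein of the membrane skeleton, fell from 340 and 339 CPM to 13.2 and 12.6 CPM in WT and to 38.5 CPM in each KO LPS library. None of these 4 genes had an LPS library within the vehicle range, as the rule that named them required. Lyz2, the macrophage lysozyme, stood at 24753 and 21359 CPM in vehicle and 5679 to 7370 CPM under LPS (-1.84 ± 0.05).

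The sensing arm moved little at its receptor. Tlr4 stood at 7.48 and 10.4 CPM in vehicle and 10.8 to 13.3 CPM under LPS, a difference of 0.43 ± 0.20 that did not pass (edgeR adjusted p = 0.149). Its partners rose. Cd14, which hands LPS on, went from 211 and 295 CPM to between 579 and 753 CPM (1.41 ± 0.06). Ly96, the MD-2 chain that binds LPS, went from 32.0 and 34.0 CPM to between 69.9 and 108 CPM (1.39 ± 0.10), and the adaptor Myd88 from 70.0 and 64.2 CPM to between 209 and 266 CPM (1.79 ± 0.08). Of the 23 receptor and signalling genes, 11 were higher and 6 lower, with a median of 0.35 on the log2 scale beside 0.07 over all genes. Under plain CPM the counts of the 23 were 7 and 8. Over all genes tested, 31.1% were higher and 25.7% lower under TMM scaling. Ticam2, which links TLR4 to TRIF, fell from 31.3 and 28.3 CPM to between 3.83 and 9.41 CPM.

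Chemokines and cytokines formed the next layer. Of 17 CC and CXC chemokines 16 were higher and 1, Ccl6, was lower, with a median of 6.35 on the log2 scale, or 5.67 when genes with a vehicle library at 0 are taken at their bound or ratio. Ccl5, which draws T cells, stood at 11.6 and 96.3 CPM in vehicle, 9984 and 9751 in WT LPS and 4515 and 4493 in KO LPS (7.64 ± 0.09, edgeR adjusted p = 1.09e-09). Cxcl10, an interferon-induced ligand of Cxcr3, stood at 89.8 and 51.5 CPM in vehicle, 7287 and 7138 in WT LPS and 3970 and 4510 in KO LPS (6.35 ± 0.10). Both were higher in all 4 LPS libraries, and for Ccl5 the vehicle libraries differed from each other as well. Among 17 cytokines 15 were higher and 1, Tgfb1, was lower, with a median of 3.36. Il1rn, the interleukin-1 receptor antagonist, went from 2.72 and 4.72 CPM to 3290, 3086, 1418 and 1398 CPM (9.20 ± 0.13). Il1b went from 162 and 206 CPM to 3575, 3633, 1973 and 2047 CPM (3.88 ± 0.07). Tnf rose from 11.6 and 2.83 CPM to between 38.5 and 83.4 CPM (3.36 ± 0.24), and Il6 from 2.04 and 3.78 CPM to between 34.5 and 64.8 CPM (4.09 ± 0.24). For all of these the LPS and vehicle libraries did not overlap. The same, with LPS higher, held for 4151 of the 12091 genes fitted, genes of the rule included. Il10 had 1 UMI over both vehicle libraries and 1.86 to 9.10 CPM under LPS, and was seen in 0.356% to 1.45% of thinned LPS monocytes against 0.208% to 1.33% of B cells.

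Negative regulators of the same pathway rose with its targets. Of 19 feedback inhibitors 16 were higher and 3 (Cyld, Zfp36 and Dusp5) lower, with a median of 2.56. Nfkbia, the inhibitor that holds NF-kB in the cytoplasm, stood at 185 and 246 CPM in vehicle, 3620 and 3467 in WT LPS and 2023 and 2158 in KO LPS (3.67 ± 0.07). Socs3, a suppressor of cytokine receptor signalling, stood at 75.5 and 131 CPM in vehicle, 1374 and 1339 in WT LPS and 793 and 810 in KO LPS (3.39 ± 0.07). Socs1, a suppressor of interferon signalling, stood at 10.2 and 11.3 CPM in vehicle, 189 and 166 in WT LPS and 93.0 and 98.6 in KO LPS (3.60 ± 0.15). All 3 were higher in every LPS library, and lower in KO than in WT LPS libraries over all selected cells. The KO difference was not seen with Xist-marked cells on both sides, where Nfkbia differed by 0.15 and Socs3 by 0.10 on the log2 scale. That split is given below.

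All 33 interferon-stimulated genes tested were higher under LPS, under each of 3 scalings, with a median of 2.74. Isg15, a ubiquitin-like modifier, went from 178 and 133 CPM to 6690 and 6189 in WT LPS and 3703 and 3057 in KO LPS (4.92 ± 0.12). Rsad2, which encodes the antiviral enzyme viperin, went from 69.4 and 47.7 CPM to 2458 and 2432 in WT and 1395 and 1331 in KO (4.99 ± 0.08). Ifit1, a sensor of foreign RNA caps, went from 62.6 and 41.1 CPM to 1254 and 1190 in WT and 874 and 776 in KO (4.31 ± 0.10). Each had at least 87 UMIs in both vehicle libraries, so the vehicle cells held these transcripts too. Over all selected cells the KO LPS libraries lay below the WT ones. With Xist-marked cells on both sides, given below, Rsad2 differed the other way, by 0.41.

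Promoters of 3 genes of these groups and of Saa3, the highest-rising gene with UMIs in both vehicle libraries, are shown, chosen after their values were seen, because they carry the letters that factors of both arms are known to bind. They are RefSeq sequences of the 250 bases before the gene's start on GRCm38.p6, written 5' to 3' on the gene's strand. Capitals mark matches, on either strand, to GGGA, any 4 bases, then CC (the NF-kB type) or to GAAA, any 2 bases, then GAAA (the type of the interferon-stimulated response element).
Cxcl10, chr5:92348890-92349139, minus strand: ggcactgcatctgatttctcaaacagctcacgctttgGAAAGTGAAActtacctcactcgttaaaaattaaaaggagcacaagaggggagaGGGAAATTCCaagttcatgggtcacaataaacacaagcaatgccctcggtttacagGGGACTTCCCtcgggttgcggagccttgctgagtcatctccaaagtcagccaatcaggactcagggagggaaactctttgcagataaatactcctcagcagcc
Nfkbia, chr12:55492648-55492897, minus strand: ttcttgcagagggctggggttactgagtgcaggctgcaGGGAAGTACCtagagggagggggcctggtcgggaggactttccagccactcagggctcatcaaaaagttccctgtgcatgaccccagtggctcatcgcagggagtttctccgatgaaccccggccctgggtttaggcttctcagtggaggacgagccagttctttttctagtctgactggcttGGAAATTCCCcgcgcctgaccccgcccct
Ifit1, chr19:34640639-34640888, plus strand: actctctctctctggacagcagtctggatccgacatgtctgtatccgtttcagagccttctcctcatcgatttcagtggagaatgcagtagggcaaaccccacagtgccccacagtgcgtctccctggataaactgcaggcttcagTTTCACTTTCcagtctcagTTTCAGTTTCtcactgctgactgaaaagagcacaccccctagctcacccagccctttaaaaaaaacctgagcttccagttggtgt
Saa3, chr7:46715677-46715926, minus strand: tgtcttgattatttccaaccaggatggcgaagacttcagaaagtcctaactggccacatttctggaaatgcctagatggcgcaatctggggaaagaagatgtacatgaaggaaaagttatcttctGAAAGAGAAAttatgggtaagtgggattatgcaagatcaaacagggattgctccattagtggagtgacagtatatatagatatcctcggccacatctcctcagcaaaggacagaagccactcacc
Cxcl10 holds the interferon type 213 bases before its start and the NF-kB type 159 and 103 bases before it. Nfkbia holds the NF-kB type at 212 and 29 bases, Ifit1 the interferon type at 104 and 85 bases, and Saa3 the interferon type at 125 bases.

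In windows of 300 bases (250 before and 50 after the start) the interferon type was found in 17 of 26 interferon-stimulated genes with a promoter in the table (65.4%), against 3.49% of all 27025 promoters. Among genes tested it was found in 3.46%, among those higher under LPS by at least 2 on the log2 scale in 9.27%, and among those lower by as much in 1.74%. The NF-kB type was found in 10 of 17 feedback inhibitors and 6 of 11 chemokines, against 20.5% of all promoters. Over all genes higher under LPS by at least 2 its share was 26.0%, the same as among the genes tested. A match is a description of the letters and not evidence of binding.

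**Figure D2:**
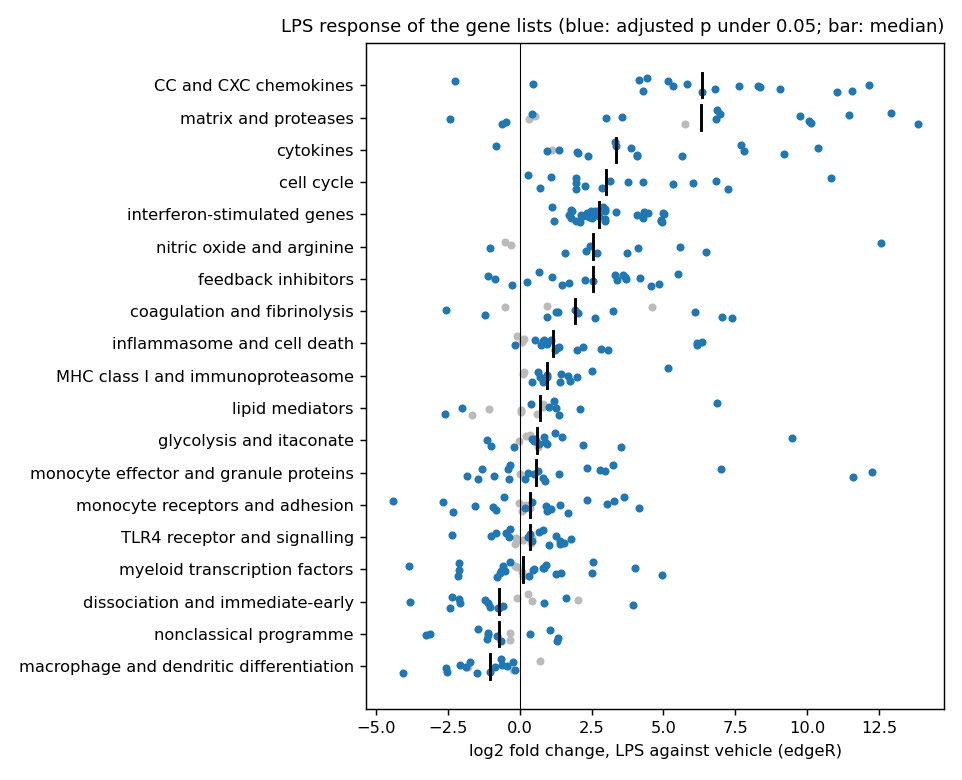
Log2 fold change, LPS against vehicle, of each gene (point) in 19 gene lists, with blue points past an edgeR adjusted p of 0.05 and a black bar at the list's median. Chemokines and matrix genes have the highest medians (6.35 and 6.29), and macrophage and dendritic genes the lowest (-1.04).

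Other groups rose with them, where 31.1% of all genes tested were higher and 25.7% lower. Of 12 genes of nitric oxide and arginine metabolism 9 were higher and 1 lower. Ass1, which recycles citrulline to arginine, went from 20.4 and 17.9 CPM to between 222 and 293 CPM (3.73 ± 0.10), and Gch1, which makes the synthase's cofactor, from 41.5 and 42.0 CPM to between 204 and 250 CPM (2.44 ± 0.08). Of 16 genes of major histocompatibility class I and the immunoproteasome 14 were higher and 0 lower, with Cd274 (the checkpoint ligand PD-L1) going from 8.84 and 6.14 CPM to 381, 382, 196 and 176 CPM. Of 20 genes of the inflammasome and cell death 16 were higher and 1 lower, and Casp4, the intracellular LPS sensor, went from 47.6 and 36.4 CPM to 480, 473, 246 and 261 CPM. Among 18 matrix and protease genes 12 were higher and 3 lower, with a median of 6.29 that becomes 3.27 with the 9 genes at 0 in a vehicle library taken at their bound or ratio. Of 20 genes of glycolysis and itaconate 13 were higher and 3 lower. Pfkfb3, which makes an activator of glycolysis, went from 17 and 17.5 CPM to 322, 301, 126 and 125 CPM. Of 15 genes of coagulation and fibrinolysis 10 were higher and 2 lower, with F10 (clotting factor X) at 81.6 and 64.7 CPM in vehicle and 662 to 718 CPM under LPS. Thbd, the anticoagulant thrombomodulin, was among the 2 lower, at 45.6 and 67.0 CPM against 5.28 to 16.9 CPM.

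Differentiation and resting genes moved the other way. Beside the counts of the lists here, 31.1% of all genes tested were higher and 25.7% lower. Of 17 macrophage and dendritic genes 0 were higher and 14 lower, with a median of -1.04. The 6 dendritic cell markers, Flt3 and Cd209a among them, summed to 91.0 and 78.7 CPM in vehicle and 6.78 to 19.9 CPM in LPS libraries. How far transcripts of other cells add to these falls was not tested. Apoe went from 1395 and 1544 CPM to between 374 and 452 CPM (-1.87 ± 0.06), and the class II peptide loader H2-DMa from 258 and 217 CPM to between 30.5 and 52.5 CPM (-2.58 ± 0.07). Of 14 genes of the nonclassical programme 8 were lower and 4 higher. Ace, the angiotensin-converting enzyme of patrolling monocytes, went from 68.7 and 86.4 CPM to between 5.52 and 14.7 CPM, while Pou2f2, a transcription factor of that lineage, went from 287 and 275 CPM to between 681 and 732 CPM. Among 26 myeloid transcription factors 12 were higher and 10 lower, and the sign of their median (0.10) flips under plain CPM (-0.22). Maf (4.02 ± 0.11) and Hif1a (2.51 ± 0.08) rose while Klf4 (-2.11 ± 0.09) and Egr1 (-2.10 ± 0.06) fell. Of 18 immediate-early and dissociation genes 11 were lower and 3 higher. Fosb went from 219 and 382 CPM to between 13.2 and 30.1 CPM, so the vehicle libraries held more of these genes, and their part in the falls was not tested. Lipid mediator genes went both ways, 7 higher and 2 lower of 16, with Alox5ap, the helper of leukotriene synthesis, falling from 1344 and 1226 CPM to between 244 and 406 CPM. Among 23 receptors 12 were higher and 7 lower, with Fcgr1 (the high-affinity IgG receptor) rising by 3.28 ± 0.08 and Ifngr1 (the interferon gamma receptor) changing by -2.67 ± 0.05. Of 22 effector and granule genes 14 were higher and 7 lower, with haptoglobin (Hp) going from 659 and 712 CPM to 8808, 8665, 4935 and 4850 CPM.

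Proliferation genes were part of the difference. All 16 cell cycle genes were higher under LPS, with a median of 3.0, and 15 were under plain CPM. Top2a, which untangles replicated DNA, stood at 28.6 and 2.83 CPM in vehicle and 158 to 206 CPM under LPS (4.29 ± 0.15). The vehicle libraries differed from each other for this gene, and both lay below the LPS libraries. In cells thinned to 2000 UMIs the share with at least 2 UMIs of 6 cycle genes was 0.813% in WT vehicle and 0 of 259 cells in KO vehicle, which allows a share of up to 1.16%. It was 9.26% and 10.6% in WT LPS and 9.61% and 9.71% in KO LPS. Lung B cells of the same libraries showed 0.512% and 0.372% in vehicle and 4.48% to 11% under LPS, so the shares differed by treatment in both cell types.

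Counted per cell, LPS genes were widespread in monocytes but not evenly so. With every cell thinned to 2000 UMIs, at least 1 Saa3 UMI was seen in 89.2% and 89.7% of WT LPS monocytes and 83.5% and 81.7% of KO LPS monocytes. In B cells, taken as a type that should lack the transcript, the shares were 40%, 34.2%, 22.6% and 10.3%, with mean Saa3 UMIs of 0.415 to 1.32 per B cell against 31.0 to 55.0 per monocyte. Nos2 was seen in 29.0% and 26.0% of WT and 3.80% and 5.55% of KO LPS monocytes, against 0.339% to 1.46% of B cells. Thinning kept 1048, 1102, 843 and 649 LPS monocytes and 525, 480, 1115 and 590 LPS B cells. Before thinning the median LPS monocyte held 7879 to 11314 UMIs and the median LPS B cell 2253 to 4337.

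The LPS comparison pairs unlike sex marks in WT (Y-linked in vehicle, Xist in LPS). Within KO alone, and with only Xist-marked cells on both sides, 2469 genes were higher and 1937 lower by the edgeR test, fewer than over all cells. There Saa3 differed by 12.24 on the log2 scale, Cxcl10 by 8.15, Nfkbia by 3.80 and Cx3cr1 by -3.88. Of the named genes in that fit, 126 kept their direction and their side of the threshold, and the 4 that no longer passed were Ccl17, Ccl22, Il10 and Rab7b.

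The response was set beside those of 1047 nonclassical monocytes (Ace, Cd300e and Treml4 together at 3 or more UMIs, Fcer1g at 2 or more, Ly6c2 at 1 or fewer) and 290 interstitial macrophages (C1q genes at 10 or more UMIs) of the same libraries. Of 9028 genes tested for a difference in LPS response, 592 (6.56%) rose more, or fell less, in classical than in nonclassical monocytes and 481 (5.33%) did the opposite (edgeR, library as block). Without the WT vehicle library the counts were 212 and 228, and without the KO vehicle library 254 and 318. The 8 genes with the largest positive difference were all genes of cell division or histones. Cenpe, a mitotic motor, had mean levels of 2.02 CPM in vehicle and 61.2 CPM in LPS classical monocytes, against 7.0 and 1.13 CPM in nonclassical ones, a difference of 7.67 ± 0.86 (edgeR adjusted p = 1.30e-05). Birc5, the apoptosis inhibitor survivin, had 1.21 and 77.8 CPM against 1.81 and 2.63 CPM, a difference that did not pass without either vehicle library. Levels in this fit share 1 TMM scaling over both classes and are means over libraries.

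All 8 genes with the largest negative difference had higher vehicle levels in classical than in nonclassical monocytes. Cxcl10 rose from 73.9 to 5785 CPM in classical and from 1.39 CPM (3 UMIs) to 3174 CPM in nonclassical monocytes, a difference of -4.87 ± 0.60 that rests on those 3 UMIs. Ifit3b went from 26.8 to 102 CPM against 2.36 (5 UMIs) to 117 CPM, and Stxbp6 from 105 to 15.7 CPM against 13 to 45 CPM (-4.56 ± 0.30). Socs3 rose less in classical monocytes (-0.63 ± 0.19, edgeR adjusted p = 0.0348). For Il1b, Tnf, Il6, Nfkbia and Socs1 a difference in response did not pass, with adjusted p from 0.280 to 0.994 in edgeR. Nos2 had 0 vehicle UMIs in both classes and a mean of 192 CPM in LPS classical against 22.5 CPM in LPS nonclassical monocytes.

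Against interstitial macrophages, 213 of 8973 genes (2.37%) responded more and 188 (2.1%) less in classical monocytes. Without the KO vehicle library these fell to 27 and 32, without the WT vehicle library to 100 and 73, and without the first WT LPS library to 141 and 112, so the counts rest on few macrophages, 32 and 49 in vehicle. Ccl12 went from 0.236 CPM (1 UMI) to 463 CPM in monocytes and from 371 to 1446 CPM in interstitial macrophages, a difference of 8.50 ± 0.60 (edgeR adjusted p = 2.86e-05). C3ar1, the receptor of the complement fragment C3a, went from 1.72 to 142 CPM against 220 to 248 CPM. In vehicle both genes were high in the macrophages and nearly silent in monocytes. Of the 8 genes with the largest negative difference 7, Ifit1 among them, had 0 UMIs in vehicle interstitial macrophages, so their fitted differences depend on a small added count. Ifit1 rose from 51.4 to 1010 CPM in monocytes and from 0 to 1461 CPM in the macrophages. Il1b (1.35 ± 0.23) and Socs3 (1.32 ± 0.20) responded more in monocytes.

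KO and WT monocytes under LPS were compared next, the libraries being 2 of each. Over all selected cells, 1381 of 12077 genes were higher in KO (11.4%) and 1543 lower (12.8%) by the edgeR test. Plain CPM gave 2696 and 848, DESeq2 gave 287 and 488, and without the first WT LPS library 890 and 905 were called, without the second 1000 lower. Nos2 stood lowest relative to WT, at 28.2 and 39.9 CPM against 368 and 320.5 CPM (-3.38 ± 0.14, edgeR adjusted p = 9.34e-06). Other genes lower in KO were Lipg, endothelial lipase (54.7 and 62.7 against 243 and 217 CPM, -1.98 ± 0.09), Ptx3 (-1.79 ± 0.12), and Ptges, a prostaglandin E synthase (106 and 105 against 311 and 345 CPM, -1.63 ± 0.07). U90926, Ifi44, Ccl7, Cxcl9 and the metallothionein Mt2 followed, from -1.89 to -1.66. The chemokine Ccl22, the last of the 10 largest, differed by -3.14. In thinned cells it was seen in 2.48%, 2.09%, 1.54% and 0.924% of LPS monocytes against 3.62%, 1.67%, 1.61% and 0.847% of B cells, shares not clearly above those of B cells. Like Ccl17 it was concentrated in the cluster of 185 cells, at 665 CPM against 10.8 CPM in the other clusters. In each of these 10 genes both KO libraries lay below both WT libraries, as the rule that named them required.

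Genes higher in KO included Lpl, lipoprotein lipase, at 131 and 144 CPM against 23 and 19.7 CPM (2.68 ± 0.09, edgeR adjusted p = 9.34e-06). Lair1, an inhibitory collagen receptor, stood at 92.1 and 90.3 against 16.7 and 19.8 CPM (2.33 ± 0.09). Fkbp5, a glucocorticoid-responsive co-chaperone, stood at 150 CPM in each KO library against 47.0 and 50.8 CPM in WT (1.62 ± 0.07). The KO LPS levels of Lpl lay within the range of the vehicle libraries, 150 and 112 CPM, whereas those of Fkbp5 were above the vehicle levels of 27.9 and 9.91 CPM. Ceacam1, Dusp6, Rasa3, Dok2, Stk10, Rab7b and Slc43a2 were the others of the 10 largest rises. For Dusp6 and Stk10 the KO LPS levels lay between those of WT LPS and vehicle cells.

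By lists, 32 of 33 interferon-stimulated genes were lower in KO and 0 higher, with a median of -0.57 beside -0.00 over all genes, and 27 were lower under plain CPM. Of 17 chemokines 13 were lower and 1 higher (median -1.13), of 17 cytokines 11 and 1 (-0.84), and of 19 feedback inhibitors 15 and 0 (-0.74). Of 16 class I and immunoproteasome genes 15 were lower and 0 higher (-0.51). Of 20 glycolysis genes 12 were higher and 2 lower (median 0.30), with 9 higher under DESeq2 size factors. The directions of these medians held under each of the 3 scalings. Over all genes tested, 11.4% were higher in KO and 12.8% lower. Of single genes in these lists, Socs1 differed by -0.90 ± 0.08, Nfkbia by -0.76 ± 0.06, Socs3 by -0.76 ± 0.05, Il1b by -0.84 ± 0.06 and Cxcl10 by -0.77 ± 0.07 (edgeR adjusted p from 4.65e-05 to 0.000198). Of the 14 nonclassical genes 7 were higher and 1 lower. Of 16 cell cycle genes 8 were lower and 0 higher, but 3 lower and 1 higher under plain CPM. Of the 23 receptor and signalling genes 10 were lower and 2 higher, with Cd14 (-0.36) and Ly96 (-0.56) among the lower. Within 10 Mb of Nos1 (chr5:117781032-117958840, plus strand, mm10), 36 of 198 tested genes were higher and 26 lower, 31.3% called against 24.2% of all genes tested.

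The KO LPS libraries mixed cells with different sex marks, and the difference from WT was not shared evenly by them. WT LPS cells with Xist alone were compared with KO LPS cells with Xist alone and with KO LPS cells with Y-linked UMIs alone, so that both comparisons share the WT cells. With Xist on both sides, 445 of 9856 genes were higher in KO (4.52%) and 215 lower (2.18%) by edgeR, and 590 and 346 without cells holding platelet UMIs. Y-linked KO cells against the same WT cells gave 1234 higher (12.5%) and 1503 lower (15.2%), and 1700 and 1814 without the platelet-bearing cells. Within the KO LPS libraries, Y-linked against Xist-marked cells, with library as block, gave 1229 higher (13.9%) and 1686 lower (19%) of 8863 genes. There the Xist-only and Y-only cells had median depths of 10415 and 11513 UMIs in the first library and 7617 and 8860 in the second.

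**Figure D3:**
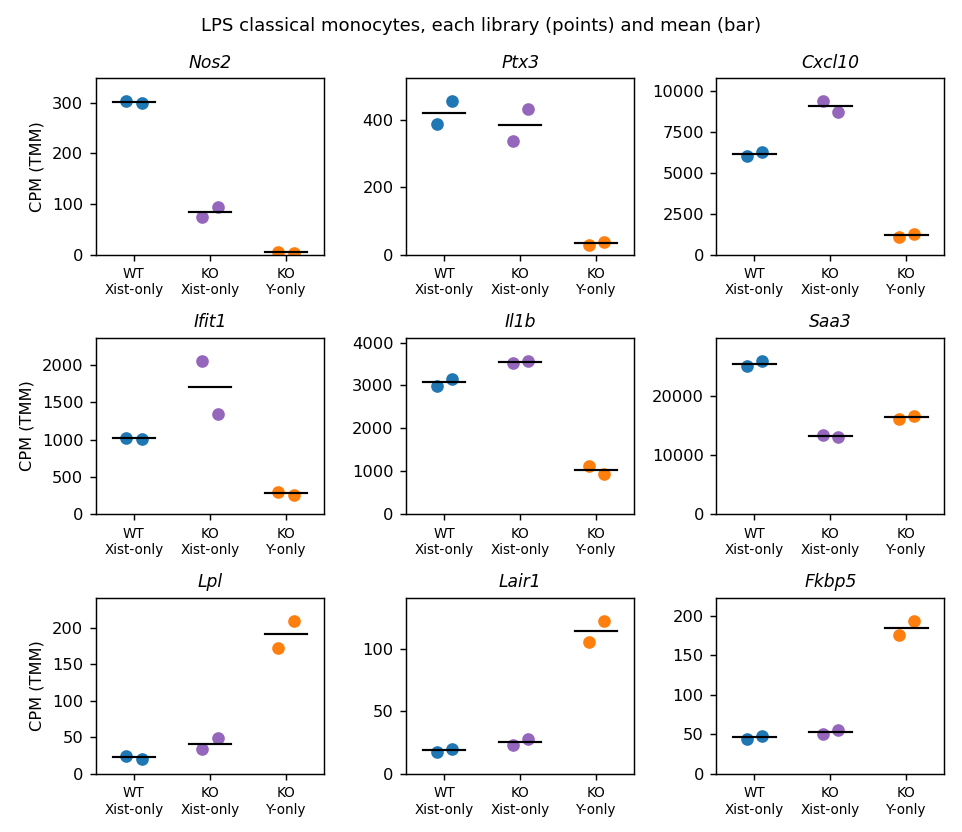
Level of 9 genes in LPS monocytes split by sex marks, in CPM after TMM scaling, with 1 point per library and a bar at the mean of 2 libraries. Nos2 and Saa3 are lower in both kinds of KO cell than in WT cells, while Ptx3, Cxcl10, Ifit1 and Il1b are low, and Lpl, Lair1 and Fkbp5 high, in the KO cells with Y-linked UMIs.

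Nos2 stood at 302 and 299 CPM in WT, 74.5 and 94.4 in Xist-marked KO and 4.88 and 3.89 in Y-marked KO cells. It was lower in both kinds of KO cell, by -1.85 ± 0.11 (edgeR adjusted p = 0.000451) and -6.04 ± 0.16 (adjusted p = 1.26e-06). Y-marked and Xist-marked KO cells differed by -4.16 ± 0.22 (edgeR adjusted p = 2.02e-11). In thinned cells Nos2 was seen in 9.82% and 12.4% of Xist-marked and 0.857% and 0.485% of Y-marked KO monocytes, the latter within the range of B cells.

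Ptx3 stood at 388 and 454 CPM in WT, 336.5 and 433 in Xist-marked KO and 27.7 and 38.4 in Y-marked KO cells. The Xist-marked cells did not pass a test against WT (-0.14 ± 0.14, edgeR adjusted p = 0.601), and the Y-marked cells lay below both. Il1b stood at 2989 and 3151, 3530 and 3571, and 1118 and 940.5 CPM in the same order, again with no call in Xist-marked cells (0.21 ± 0.09, edgeR adjusted p = 0.180). Cxcl10 stood at 6002 and 6244, 9366 and 8744, and 1070 and 1283 CPM. It was thus higher in Xist-marked KO cells than in WT (0.56 ± 0.09, edgeR adjusted p = 0.0158) and lower in Y-marked ones (-2.38 ± 0.10). Ifit1 had the same order, at 1015 in each WT library, 2055 and 1350, and 300.3 and 262 CPM.

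Saa3 behaved differently. It stood at 25024 and 25892 CPM in WT, 13454.5 and 12966 in Xist-marked KO and 16054 and 16650 in Y-marked KO cells, lower in both (-0.95 ± 0.07 and -0.64 ± 0.07). Hp, at 7377 and 7690, 5575 and 5527, and 4416 and 4246 CPM, was also lower in both, as was Lcn2 (-0.52 ± 0.08 and -0.87 ± 0.08). The other genes named by rule that were lower in both were Nos2, Cxcl9, Mt2, Ifi44, H2-Aa, Lipg, Il27, Ccl7, Prtn3, Oasl2, Ptges, Pfkfb3, Ccl3, Psmb9 and Ass1, with values in Xist-marked cells from -1.85 (Nos2) to -0.30 (Ass1). Of genes higher in KO, Lpl stood at 24.3 and 20.8 CPM in WT, 34.1 and 48.4 in Xist-marked KO and 172 and 210 in Y-marked KO cells. It passed in both (0.83 ± 0.19, edgeR adjusted p = 0.0414, and 3.06 ± 0.16). Lair1 (0.44 ± 0.17, adjusted p = 0.156) and Fkbp5 (0.19 ± 0.11, adjusted p = 0.319) did not pass in Xist-marked cells by edgeR and were higher in Y-marked ones by 2.61 ± 0.13 and 1.99 ± 0.09. Serpinb2, a protease inhibitor of activated monocytes, was higher in Xist-marked (0.75) and lower in Y-marked KO cells (-3.27).

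Of the 33 interferon-stimulated genes 9 were higher and 3 lower in Xist-marked KO cells (median 0.13), and 0 and 33 in Y-marked ones (median -1.13). Without platelet-bearing cells the Xist-marked counts were 10 and 5. Over all genes tested, with the platelet-bearing cells, 4.52% were higher and 2.18% lower in Xist-marked KO cells. In Y-marked ones 12.5% were higher and 15.2% lower. The 9 included Ifit1, Ifit2, Ifit3, Cmpk2 and Oasl1, and the 3 were Ifi44, Oasl2 and Bst2. Feedback inhibitors gave 2 higher (Dusp2 and Tnip3) and 0 lower against 0 and 16, and class I genes 0 and 1 against 0 and 14. Without platelet-bearing cells the Xist-marked counts were 3 and 1 for feedback inhibitors and 0 and 3 for class I genes. Of 17 chemokines 3 were higher and 4 lower (Cxcl9, Ccl2, Ccl7 and Ccl3) against 1 and 14, and of 17 cytokines 1 and 2 against 1 and 12. Without platelet-bearing cells they were 3 and 7 for chemokines and 3 and 2 for cytokines in Xist-marked cells. Nfkbia, at 2981 and 2977, 3277 and 3326, and 1165 and 1177 CPM, and Socs1, at 165 and 149, 178 and 153, and 40.8 and 43.6 CPM, show the pattern. Glycolysis genes gave 1 higher and 2 lower against 10 and 2. The 1 higher, the glucose transporter Slc2a3, stood at 68.6 CPM in the first KO LPS library, which holds the platelet-rich cells, and at 2.91 CPM in the second. Without platelet-bearing cells 0 were higher. No other LPS library held Y-marked monocytes, so the sex mark and whatever else differs between the cells of the KO LPS libraries cannot be told apart.

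**Figure D4:**
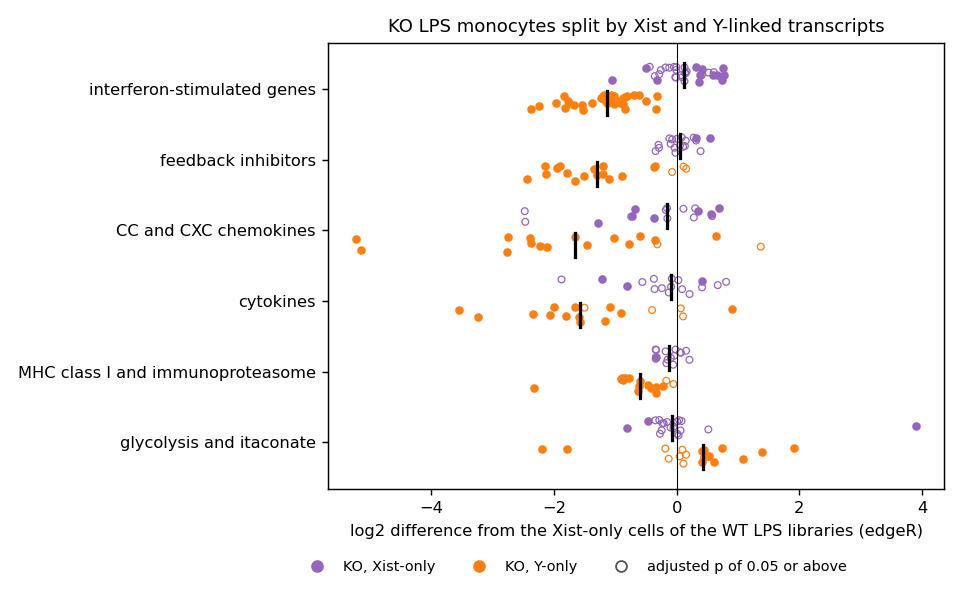
Log2 difference of KO LPS monocytes from the Xist-marked cells of the WT LPS libraries for genes (points) of 6 lists, with KO cells of Xist alone in purple and of Y-linked UMIs alone in orange; filled points pass an edgeR adjusted p of 0.05 and bars are medians. The medians of the interferon-stimulated genes are 0.13 and -1.13.

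The genotype-by-LPS term, which asks whether KO and WT monocytes responded differently, passed for 195 higher (1.61%) and 144 lower (1.19%) of 12077 genes by edgeR, with 1 vehicle library a side. Plain CPM gave 307 and 80, and 327 were higher without the second KO LPS library and 245 lower without the first. Ccl5 differed most by p, by -4.19 (adjusted p = 0.000224 in edgeR). It rose from 11.6 to 9984 and 9751 CPM in WT and from 96.3 to 4515 and 4493 CPM in KO. The larger part of this difference lies between the single vehicle libraries, whose levels were further apart in ratio than those under LPS. T cell markers summed to 114 CPM in the KO vehicle library against 60.4 CPM in its WT counterpart, and NK cell markers to 25.5 against 9.41 CPM. B cell markers lay the other way, at 257 against 326 CPM. How far transcripts of other cells add to the Ccl5 gap was not tested. Lpl fell from 150 CPM to 23 and 19.7 CPM in WT and stood at 112, 131 and 144 CPM in the KO libraries, a difference of 3.10 (adjusted p = 0.000300). Chil3, a chitinase-like protein, went from 1218 to 822 and 758 CPM in WT and from 732 to 1446 and 1399 CPM in KO. Cd74, the class II invariant chain, stood at 783 CPM in WT vehicle and 1088 and 1131 CPM in WT LPS, and at 903 CPM against 504 and 498 CPM in KO. The differences were 1.58 (adjusted p = 0.00125) and -1.35 (adjusted p = 0.00150) in edgeR. For Chil3 and Cd74 the libraries moved in opposite directions in WT and KO. The WT vehicle cells were Y-marked, the KO vehicle and WT LPS cells Xist-marked and the KO LPS cells of both kinds, so sex marks and groups cannot be told apart in this term.

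The vehicle libraries, 1 of each genotype, allow values only. The 5 largest ratios of KO to WT were of Mfap4, Mgp, Igfbp7, Inmt and Gstp1. Mfap4, a matrix microfibril protein, had 38.7 CPM in KO vehicle (exact 95% Poisson interval 30.8 to 48.1) against 1.36 CPM in WT vehicle (0.165 to 4.91), and the 4 stromal markers summed to 24.4 against 0.784 CPM, while the 3 endothelial markers stood at 109 against 34.5 CPM. Their part in these ratios was not tested. Among the lowest were the interferon-stimulated gene Oasl2, at 35.4 CPM (27.9 to 44.4) against 92.5 CPM (77.6 to 109), and Cxcl10 stood at 51.5 CPM (42.3 to 62.1) against 89.8 CPM (75.1 to 106). Socs3 was the other way, at 131 CPM (116 to 147) against 75.5 CPM (62.1 to 90.9).

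The LPS monocytes were not uniform. Leiden clustering gave 9 groups. Their leading genes also made them, and include genes that differ between WT and KO, so cluster sizes are no separate result. The shares below in part restate the KO against WT difference and are not evidence for it. The cluster of 1350 cells, led by Nos2, Ccl7, Scimp, Adora3 and Ccl12, held 53.8% and 51.8% of WT LPS monocytes and 12.1% and 15.1% of KO ones. The cluster of 753 cells held 52.5% and 46.1% of KO LPS monocytes and 0.283% and 0.358% of WT ones, and within KO 79.7% and 75.7% of Y-marked but 3.11% and 1.55% of Xist-marked cells. Its first genes by fold were the platelet genes Nrgn, Pf4 and Ppbp. In the first KO LPS library 13 monocytes held any UMI of the platelet markers, and 2 of them nearly all, so these genes do not describe the cluster as a whole. Platelet markers, Pf4 included, summed to 842 CPM in the Xist-marked and 13.1 CPM in the Y-marked monocytes of that library. Clec1b, Gng11, Tsc22d1 and Prkar2b came next by fold, and whether the same few cells supplied them was not tested. Lair1, Ctla2a and Hip1 were the last of its first 10.

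The cluster of 645 cells was led by Retnla, Serpinb2 and Hpgd, and that of 343 by the cell division genes Hist1h1b, Hist1h3c and Top2a, with a median of 19000 UMIs. A cluster of 185 cells was led by Gzmb, Ccl17, Gzma and Ccl22, and held Ccl17 at 998 CPM against 10.4 CPM in the others and Ccl22 at 665 against 10.8 CPM. One of 165 cells was led by Hamp, Apod and Prtn3, with Mpo, Mcm6 and Cd209a among its first 10, and one of 177 by neutrophil genes such as Chil1 and Retnlg. The smallest, of 38 and 20 cells, were led by Lyve1, Timp3 and the endothelial gene Cldn5, and by Igkc and other immunoglobulin genes. No doublet caller was run, so some of these droplets may hold more than 1 cell.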

How the data were processed

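Single-cell RNA libraries of CD45-selected lung cells were made with 10x Genomics chemistry, and the authors deposited whole-number UMI counts per gene and cell barcode, per the file headers. Cell Ranger 6.1.0, Seurat 4.1.0, R 4.1.3 and the mm10 build are named in the submitters' processing notes. The files hold 64428 barcodes, of which 61736 passed 200 genes and 10% mitochondrial UMIs.

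The monocyte rule, the members and the gene lists were chosen with earlier results of these data known. UMIs of the selected cells were summed per library and tested with edgeR 4.0.16 (R 4.3.3), using TMM scaling, its default low-count filter, 4 group coefficients with 2 residual degrees of freedom, quasi-likelihood tests and Benjamini-Hochberg adjustment. The spread comes from the LPS libraries, since each vehicle group has 1 library. Comparisons of cell types used both sums of each library with library as block. The fits were tested on simulated data. DESeq2 1.42.0 was run as an alternative. Clusters came from scanpy 1.11.5 with leidenalg 0.10.2 (30 components, 20 neighbours, 2000 variable genes, resolution 0.5). No doublet caller was run, and leaving out the deepest 5% of cells stood in for one. Gene positions are from GENCODE M21 and promoters from RefSeq.

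Genes were named by rule: the 12 largest rises and falls under LPS and the 10 largest for KO, past 0.05 with at least 50 CPM on the higher side and no overlap between groups; up to 5 members with the smallest p of each list; the 8 smallest p of the interaction; the 8 largest class differences each way; and the 5 largest vehicle ratios each way with at least 50 UMIs. The nitric oxide synthases Nos1 and Nos2, the inhibitors Nfkbia, Socs1 and Socs3, and the cytokines Cxcl10, Il1b, Il6, Il10 and Tnf were always given. Any other gene named was chosen after its values were seen. Alternatives were other scalings, tests, filters and cell rules, left-out libraries, a replicate block, and cells split by Xist and Y-linked UMIs.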

Additional observations from a re-analysis of the deposited data

Results flagged for a closer look

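The LPS response differed between genotypes by the edgeR test of the difference itself (KO minus WT, log2) for 8 named genes: Ccl5 at -4.19, Lpl at 3.10, Chil3 at 1.58, Cd74 at -1.35, Add3 at 1.58, Dusp6 at 1.96, Lamtor4 at 1.45 and Nfkbiz at -1.84. Sex marks differ between the groups of this comparison, and their part in these differences was not tested. With only Xist-marked cells on both sides within KO, the LPS effect was -1.39 for Lpl, -2.25 for Dusp6 and -3.84 for Add3. For Ccl5 it was 6.39. Over all KO cells the Lpl effect was 0.29. The Ccl5 levels of the vehicle libraries lay further apart in ratio than its LPS levels.

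The response also differed between classical and nonclassical monocytes by the same kind of test. The log2 difference, classical minus nonclassical, was 7.67 for Cenpe, 6.12 for Ube2c, 5.78 for Birc5, 5.09 for Cks1b, 5.06 for Prc1, 4.82 for Cdca8, 4.81 for Cenpa and 4.50 for Hist1h2ae. It was -8.14 for Trim30c, -4.87 for Cxcl10, -4.56 for Stxbp6, -3.70 for Ifit3b, -3.31 for Mfsd7a, -3.26 for Id3, -3.21 for Cd38 and -3.16 for Pitpnc1. Trim30c had 0, Cd38 had 1 and Cxcl10 had 3 vehicle UMIs in nonclassical monocytes, so those fitted values depend on a small added count.

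Against interstitial macrophages the log2 difference was 8.54 for Birc5, 8.50 for Ccl12, 8.31 for Pclaf, 7.86 for Prtn3, 7.72 for Hist1h3c, 7.65 for Cdk1, 6.23 for C3ar1 and 6.03 for Hist1h2ae. It was -11.09 for Ifit1, -9.93 for Oas3, -8.99 for Ifi205, -8.74 for Nlrc5, -8.38 for Mlkl, -8.38 for Trim30b, -8.22 for Fpr2 and -6.60 for Ifit3. The first 7 of these last 8 had 0 vehicle UMIs in the macrophages and Ifit3 had 1, so their size is not a bound. Ccl12 had 1 vehicle UMI in the monocytes.

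Many of these cell type differences did not pass without a vehicle library, though each kept its direction. Against nonclassical monocytes these were Ube2c, Birc5, Prc1, Cdca8, Cenpa and Cd38 without the WT vehicle library, and Birc5, Prc1, Hist1h2ae and Cd38 without the KO vehicle library. Against interstitial macrophages they were Prtn3, Nlrc5, Mlkl, Trim30b and Fpr2 without the WT vehicle library. Without the KO vehicle library they were Birc5, Pclaf, Hist1h3c, Cdk1, Hist1h2ae, Oas3, Ifi205, Nlrc5, Mlkl, Trim30b and Fpr2.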

How the results depend on the processing

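Counts of genes higher and lower moved by over 1.5 times as follows. DESeq2 gave 2502 and 1651 for LPS, 287 and 488 for KO against WT, 64 higher for the genotype difference in response, and 274 higher for classical minus nonclassical monocytes. Plain CPM gave 2696 and 848 for KO and 307 and 80 for the genotype difference in response. LPS within KO in Xist-only cells gave 2469 and 1937. KO against WT in Xist-only cells gave 445 and 215, or 590 and 346 without cells with platelet UMIs. For the genotype difference in response, no low-count filter gave 522 and 402, leaving out the deepest 5% of cells 300 and 340, leaving out cells with platelet UMIs 301 and 269, and the replicate block 413 and 392. With no low-count filter the interstitial comparison gave 373 and 417. The cause of these moves was not tested.

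Leaving out 1 LPS library at a time gave 3662 to 3814 higher and 3017 to 3158 lower for LPS, 890 to 1529 and 905 to 1515 for KO, and 184 to 327 and 141 to 245 for the genotype difference. Within WT alone LPS gave 3029 and 2548, and within KO alone 2980 and 2372. Leaving out any 1 of the 6 libraries gave 212 to 569 and 228 to 529 against nonclassical monocytes, and 27 to 226 and 32 to 258 against interstitial macrophages.

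Directions reversed for 3 genes of the LPS effect within KO alone, Lpl (0.29), Ceacam1 (0.14) and Slc43a2 (0.037). They reversed for 13 genes of KO against WT in Xist-only cells, given first with all such cells and then without platelet-bearing ones: Ccl5 0.28 and 0.25, Ccl4 0.30 and 0.26, Cxcl10 0.56 and 0.58, Il1b 0.21 and 0.19, Dusp2 0.31 and 0.29, Nfkbia 0.15 and 0.15, Socs3 0.10 and 0.10, Tnip3 0.54 and 0.51, Tnip1 0.13 and 0.15, Rsad2 0.41 and 0.23, Oasl1 0.38 and 0.38, Ifit1 0.75 and 0.41, and Socs1 0.082 and 0.059.

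The share of monocytes moved with the rule, in the order WT vehicle, KO vehicle, WT LPS and KO LPS. With 1 Ly6c2 UMI it was 2.81% in WT vehicle, 11% and 10.5% in WT LPS and 8.32% and 8.81% in KO LPS. With 4 it was 1.72%, 2.42%, 8.35%, 7.68%, 6.23% and 6.38%. Without Ms4a4c it was 8.90% and 8.17% in WT LPS. Thinned, it was 2.26% in KO vehicle and 7.59%, 7.07%, 5.68% and 6.24% under LPS.

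Whether the replicate numbers pair the libraries is not known. The deviations of same-numbered LPS libraries from their group means correlated at 0.0011 across genes, which with 2 pairs cannot settle it. The replicate block changed no call among 192 named results. For KO against WT it gave 1763 genes higher and 1931 lower, against 1381 and 1543 without it. The planned fit of Y-linked cells alone was not run, since the WT LPS libraries held 0 such cells. With 1 library in each vehicle group, no spread between vehicle libraries of a genotype is known.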
